A study of Homo sapiens with 4 samples.

Results

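Cholesterol synthesis was followed through 28 named genes in KGN cells that overexpressed TOX3: 18 enzymes of the pathway, 5 genes of the SREBP system that controls it, and 5 genes of the liver X receptor (LXR) response to sterols. The genes were chosen by name from the 33880 genes of the expression table, and all 28 were found. Of these, 27 had a mean of at least 0.5 RPKM over the 4 libraries, as did 14184 genes in all, and only such genes were tested together. RPKM scales the reads of a gene to its length and to the reads of the whole library. The gene below this level was ABCG1.

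KGN cells are a human line established from a granulosa cell tumor of the ovary. The LV-TOX3 group was infected with a lentivirus for overexpression of TOX3, which encodes a nuclear protein with an HMG box, and the LV-CON group with the control lentivirus. Both viruses carried puromycin resistance, were added at a dilution of 1 to 200, and were followed by 2 mg/ml puromycin over 2 passages, so every library came from infected and selected cells of 1 line. Each group had 2 libraries, numbered 1 and 2, and values of a group are given in that order. The promoter that drove TOX3 is not given in the sources used here. The study calls its samples independent, but the sources do not say whether libraries with the same virus were grown as separate cultures, so a p-value reflects only how far these libraries differ, which may be technical.

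Cells make cholesterol from acetyl-CoA, first through mevalonate to farnesyl pyrophosphate, then through squalene and lanosterol. When sterols in the endoplasmic reticulum run low, the escort protein SCAP carries SREBP to the Golgi, where it is cut into a transcription factor that raises the genes of the pathway. When sterols are plentiful, INSIG proteins hold SCAP back, and oxysterols switch on LXR, which raises exporters of cholesterol. Granulosa cells use cholesterol as the starting material of steroid hormones.

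TOX3 (hg38 chr16:52436417-52547802, minus strand) had 1586 and 1428 reads in LV-TOX3, equal to 18.1 and 17.3 RPKM, against 0 reads in both LV-CON libraries, which allows up to 3 reads each by counting error. The labels of the 4 libraries therefore matched their TOX3 level. The libraries held 17413376 and 16403371 reads in LV-TOX3, against 17757132 and 17858746 in LV-CON. Of 9 granulosa markers, 8 had a mean of at least 0.5 RPKM, and the sum of all 9 was 96.0 and 92.5 RPKM in LV-TOX3, against 89.3 and 86.5 RPKM in LV-CON. FSHR and CYP19A1, named after their values were seen, carried that difference, since the other 7 summed to 72.6 and 75.1 RPKM in LV-TOX3, against 77.1 and 76.3 RPKM in LV-CON. The 5 epithelial markers all had means below 0.5 RPKM, CD68, LYZ, INSL3 and DDX4 were at 0 in every library, and of the endothelial and blood markers KDR and PTPRC alone passed that level. In bulk RNA, fewer cells of a type and less RNA per cell cannot be told apart.

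The LV-TOX3 libraries stood apart from each other in these genes, so each library is also described on its own. Across all tested genes the median difference between replicate 2 and replicate 1, on the log2(RPKM + 0.1) scale, was 0.03 in LV-TOX3 and 0.01 in LV-CON. LV-TOX3 replicate 2 reached at least 1.2 times replicate 1 in 16.3% of all tested genes, and the same was true of 16.1% in LV-CON. That the LV-TOX3 libraries moved in opposite ways in this pathway was known when they were taken apart, so the counts by library are a description and were not tested.

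The 28 genes covered a wide range of levels, as the plot of RPKM by library shows. Averaged over the 4 libraries, 8 genes had at least 50 RPKM, led by MSMO1 and INSIG1, and 8 had less than 10 RPKM. The summed level of the 18 enzymes was 717 and 910.3 RPKM in LV-TOX3, against 828 and 764 RPKM in LV-CON. LV-TOX3 thus held both the lowest and the highest sum, with both LV-CON libraries between them.

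**Figure D1:**
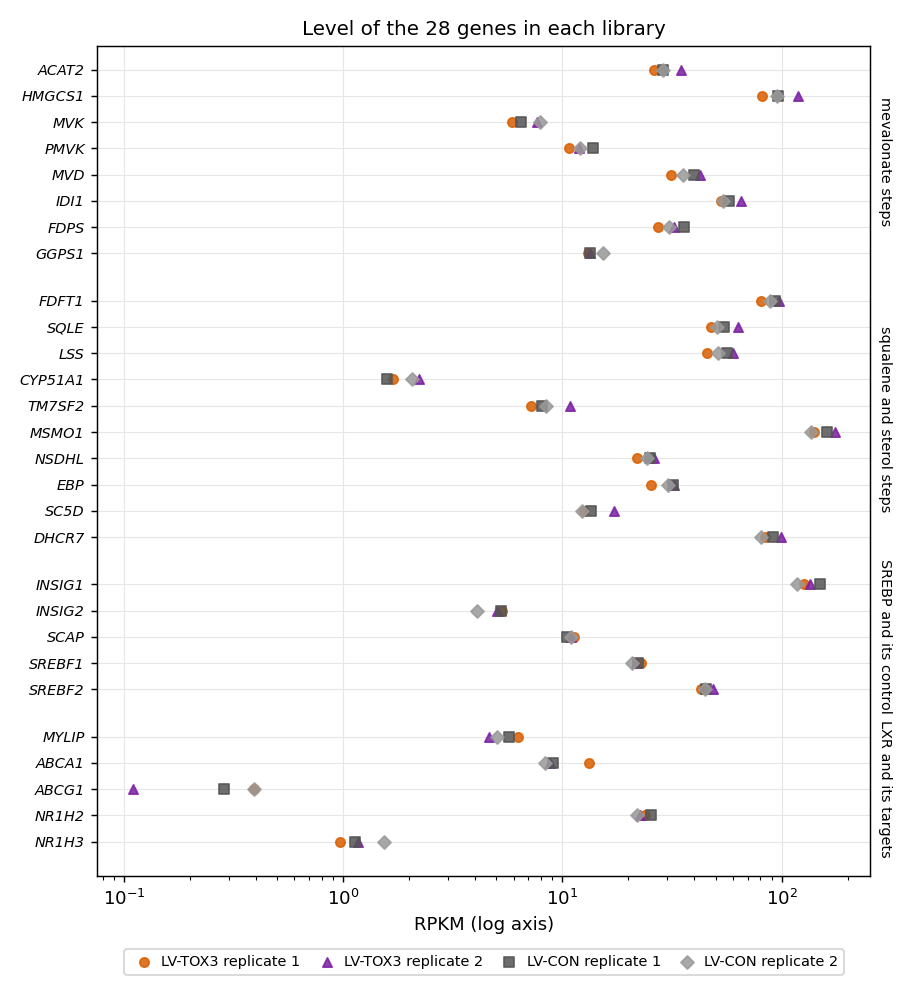
RPKM (horizontal log axis) of each of the 28 genes in the 4 libraries, 1 point per library, with the genes grouped by role. MSMO1 and INSIG1 had the highest means, whereas CYP51A1 and NR1H3 lay between 0.963 and 2.23 RPKM and ABCG1 below 0.5 RPKM.

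Promoter sequences are shown for 4 genes that stand for the roles and for the directions seen between the LV-TOX3 libraries. The RefSeq table (GRCh38.p14) gave windows of 250 bases before to 50 bases after the gene start for 24 of the 28 genes, 35 windows in all. SREBP binds sterol regulatory elements, here searched as TCACNCCAC, and works beside the factor NF-Y, which binds the CCAAT box (CCAAT). Capitals mark both motifs on either strand, so a CCAAT box on the other strand reads ATTGG. SREBF2 (chr22:41832855-41833154, plus strand) held 1 of each. MSMO1 (chr4:165327419-165327718, plus strand) held 4 CCAAT boxes, and HMGCS1 (chr5:43313363-43313662, minus strand, 1 of its 2 windows) held 2. The HMGCS1 window was picked as the one with the most CCAAT boxes, or the first at a tie. Its count is therefore the highest of its windows. ABCA1 (chr9:104928106-104928405, minus strand), an LXR target, held neither.
SREBF2: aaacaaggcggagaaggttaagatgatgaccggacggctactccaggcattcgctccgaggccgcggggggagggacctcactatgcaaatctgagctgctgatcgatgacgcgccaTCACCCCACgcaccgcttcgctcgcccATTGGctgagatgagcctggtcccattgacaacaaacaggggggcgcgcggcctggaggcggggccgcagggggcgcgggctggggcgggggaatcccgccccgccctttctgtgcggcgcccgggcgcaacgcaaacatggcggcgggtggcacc
MSMO1: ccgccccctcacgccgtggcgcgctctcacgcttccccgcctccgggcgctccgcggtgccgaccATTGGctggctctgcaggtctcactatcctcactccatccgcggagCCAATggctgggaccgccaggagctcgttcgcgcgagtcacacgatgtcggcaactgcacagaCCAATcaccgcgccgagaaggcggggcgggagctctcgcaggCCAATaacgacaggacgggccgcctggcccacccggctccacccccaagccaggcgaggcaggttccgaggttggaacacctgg
HMGCS1: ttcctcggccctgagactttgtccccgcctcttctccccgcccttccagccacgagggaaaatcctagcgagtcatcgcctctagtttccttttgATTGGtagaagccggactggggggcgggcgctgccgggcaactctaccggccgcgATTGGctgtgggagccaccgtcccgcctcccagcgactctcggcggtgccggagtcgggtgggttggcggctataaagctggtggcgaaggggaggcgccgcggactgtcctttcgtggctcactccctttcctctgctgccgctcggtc
ABCA1: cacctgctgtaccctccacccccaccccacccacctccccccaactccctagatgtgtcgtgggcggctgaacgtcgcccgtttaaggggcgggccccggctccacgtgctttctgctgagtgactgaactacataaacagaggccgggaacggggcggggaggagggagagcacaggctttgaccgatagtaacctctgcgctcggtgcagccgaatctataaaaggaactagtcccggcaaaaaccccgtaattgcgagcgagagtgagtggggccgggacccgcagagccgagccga

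The sterol regulatory element was found in 1 of the 35 windows, that of SREBF2, and in 1.13% of all 35116 windows of the table. A CCAAT box was found in 19 of the 35 windows, belonging to 17 of 24 genes, and in 34.6% of all windows. The GC box GGGCGG, bound by Sp1, was found in 30 of the 35 windows and in 45.0% of all. GC boxes are not in capitals, and these matches are descriptions of letters in a window, not binding sites. A window without a match may still hold an element with other letters, and sequence outside the windows was not searched.

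No gene of the 27 tested differed between LV-TOX3 and LV-CON in limma with Benjamini-Hochberg adjustment, with 0 higher and 0 lower at an adjusted p under 0.05. Among all tested genes 0.00705% were higher, which was TOX3 alone, and 0.0% were lower. At an unadjusted p under 0.05 the count was again 0 of 27, beside 6.8% of all tested genes. The adjusted p-values of the 27 genes in limma ran from 0.790 to 1.00. Differences between group means were positive for 15 genes and negative for 12, with a median of 0.03 on the log2(RPKM + 0.1) scale, against -0.01 over all tested genes. Of all tested genes, 6633 differences were positive and 7551 negative.

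Taken by library, LV-TOX3 replicates 1 and 2 lay on opposite sides of the LV-CON mean for most of the 18 enzymes. In LV-TOX3 replicate 1, 18 of 18 enzymes were below the LV-CON mean, as were 53.8% of all tested genes. In LV-TOX3 replicate 2, 15 of 18 enzymes were above it, as were 49.8% of all tested genes. The median enzyme differed from the LV-CON mean by -0.18 in replicate 1 and by 0.20 in replicate 2 on the log2(RPKM + 0.1) scale, which left a median of 0.00 between the group means. Against the LV-CON library of the same number, 17 of 18 enzymes were lower in LV-TOX3 replicate 1 (52.0% of all tested genes) and 15 of 18 were higher in LV-TOX3 replicate 2 (47.7% of all).

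**Figure D2:**
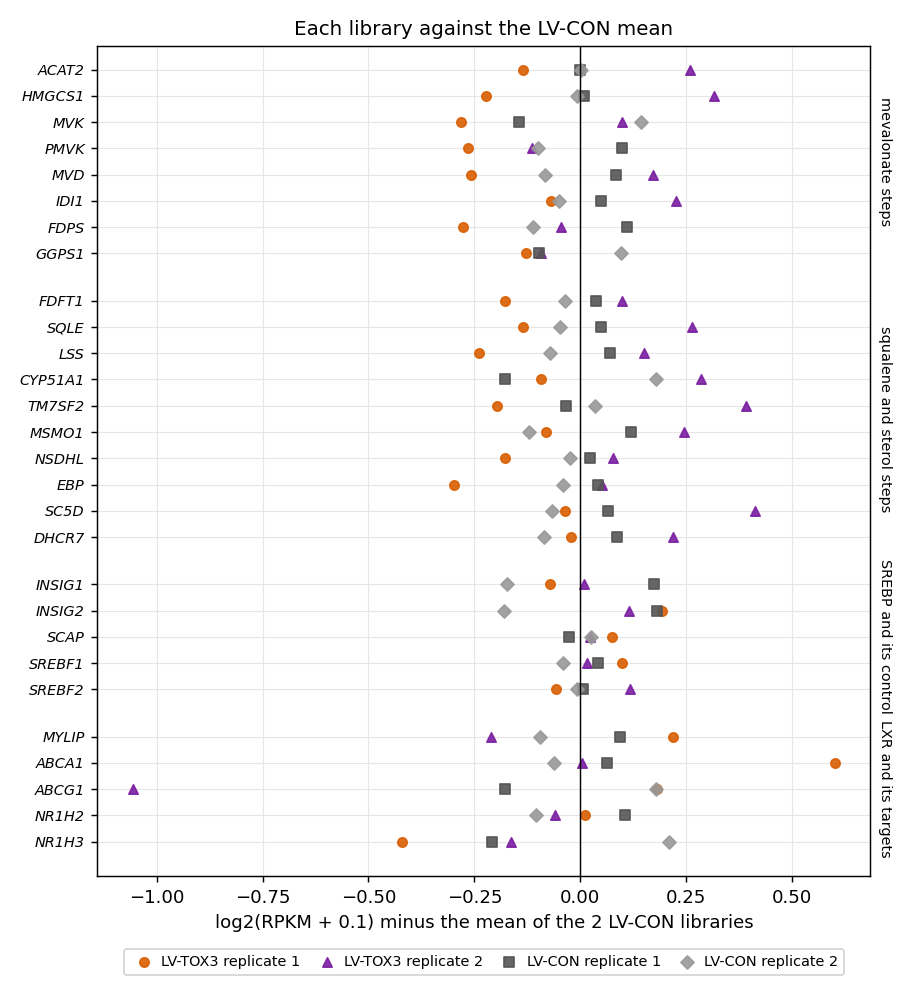
Log2(RPKM + 0.1) of each library minus the mean of the 2 LV-CON libraries (horizontal axis) for the 28 genes, grouped by role, 1 point per library. For the 18 enzymes LV-TOX3 replicate 1 sat left of 0 in every row and LV-TOX3 replicate 2 right of it in 15, while MYLIP showed the other order.

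The order in which replicate 1 was below both LV-CON libraries and replicate 2 above both held for 11 of the 27 tested genes, against 7.98% of all tested genes. These were ACAT2, HMGCS1, MVD, IDI1, FDFT1, SQLE, LSS, TM7SF2, NSDHL, EBP and SREBF2. Singly, replicate 1 was below both LV-CON libraries in 16 of 27 (37.1% of all) and replicate 2 above both in 15 of 27 (34.5% of all). The opposite order was seen in 1 of 27, MYLIP, and in 6.42% of all tested genes. Both LV-TOX3 libraries lay above both LV-CON libraries in 0 of 27 (17.0% of all), and below both in 1, PMVK (20.6% of all). When the libraries had to be set apart by at least 5%, an alternative chosen after seeing the data, 6 genes instead of 11 were in the first order, against 3.05% of all tested genes.

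Between the LV-TOX3 libraries, replicate 2 was above replicate 1 in 18 of 18 enzymes, against 55.1% of all tested genes. The ratio of replicate 2 to replicate 1 ran from 1.02 for GGPS1 to 1.51 for TM7SF2, with a median of 1.29. Reads could be recovered from the RPKM values, and the exact binomial 95% interval of this ratio was above 1 for 16 of the 18 enzymes, against 18.3% of the tested genes with reads in LV-TOX3. In LV-CON the interval was above 1 for 3 enzymes (17.3% of such genes) and below 1 for 9 (16.1%). Such an interval covers counting error only and, like the counts by library, describes libraries that were known to differ. It narrows as reads rise, and the shares over all such genes were not matched to the enzymes for reads. In LV-CON, replicate 2 was above replicate 1 in 5 of 18 enzymes (51.4% of all tested genes), with ratios from 0.847 to 1.30 and a median of 0.939. Of the 27 tested genes, 14 reached a ratio of 1.2 in LV-TOX3 (16.3% of all tested genes), 13 of them enzymes. In LV-CON 3 of the 27 did so (16.1% of all).

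**Figure D3:**
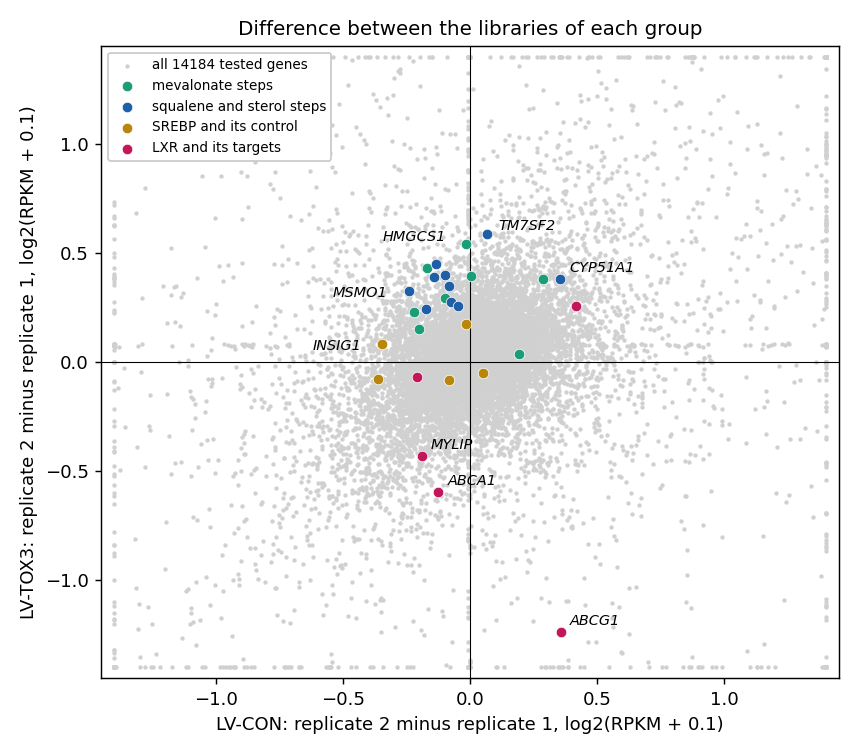
Replicate 2 minus replicate 1 on the log2(RPKM + 0.1) scale in LV-TOX3 (vertical axis) against the same difference in LV-CON (horizontal axis), with all tested genes in grey and the 28 genes coloured by role. The enzymes lie above 0 on the vertical axis, mostly left of 0 on the horizontal one, with ABCA1, MYLIP and ABCG1 below 0 on the vertical axis. Grey points beyond the axis limits are drawn at the edge.

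The first steps lead to mevalonate. ACAT2, the cytosolic thiolase that joins acetyl-CoA units, had 26.3 and 34.6 RPKM in LV-TOX3, against 28.9 and 28.9 RPKM in LV-CON. HMGCS1 (chr5:43287470-43313512), which adds a further unit to give hydroxymethylglutaryl-CoA, had 81.7 and 119 RPKM in LV-TOX3, against 95.9 and 94.9 RPKM in LV-CON. For both genes the LV-CON libraries nearly coincided and lay inside the gap between the LV-TOX3 libraries. The ratio of LV-TOX3 replicate 2 to replicate 1 was 1.31 for ACAT2 (95% counting interval 1.24 to 1.40) and 1.45 for HMGCS1 (1.39 to 1.52), whereas replicate 2 over replicate 1 in LV-CON was 1.00 and 0.989. The fitted log2 difference of HMGCS1 between the group means was 0.05 (SE 0.18; limma adjusted p = 0.979). The recovered reads of HMGCS1 are the fewest its values allow and may be a whole multiple of that, which would narrow its interval.

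Mevalonate is then phosphorylated by MVK and PMVK and decarboxylated by MVD. MVK had 5.88 and 7.68 RPKM in LV-TOX3, against 6.47 and 7.93 RPKM in LV-CON, so replicate 2 was the higher library in both groups. PMVK had 10.7 and 11.9 RPKM in LV-TOX3, against 13.8 and 12.0 RPKM in LV-CON. It was the member with the smallest p, with a log2 difference of -0.19 (SE 0.11; limma adjusted p = 0.790), and although its groups did not overlap, LV-TOX3 replicate 2 was next to LV-CON replicate 2. MVD had 31.4 and 42.4 RPKM in LV-TOX3, against 39.9 and 35.5 RPKM in LV-CON, with LV-CON replicate 1 close to the higher LV-TOX3 library.

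The mevalonate branch ends in isoprenoid units. IDI1, the isomerase of isopentenyl pyrophosphate, had 53.1 and 65.2 RPKM in LV-TOX3, against 57.6 and 53.8 RPKM in LV-CON. FDPS, which makes farnesyl pyrophosphate, had 27.4 and 32.2 RPKM in LV-TOX3, against 35.9 and 30.8 RPKM in LV-CON. GGPS1, which lengthens it to the geranylgeranyl group used to anchor proteins in membranes, had 13.1 and 13.4 RPKM in LV-TOX3, against 13.4 and 15.3 RPKM in LV-CON. GGPS1 stands outside the route to sterols and was the enzyme with the least difference between the LV-TOX3 libraries, at a ratio of 1.02 (95% counting interval 0.931 to 1.13). Over the 8 genes of these steps the median difference from the LV-CON mean was -0.24 in LV-TOX3 replicate 1 and 0.13 in replicate 2 on the log2(RPKM + 0.1) scale.

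FDFT1 joins farnesyl units into squalene, the first step committed to sterols, and SQLE and LSS oxidize and close squalene to lanosterol. FDFT1 had 80.2 and 97.1 RPKM in LV-TOX3, against 93.0 and 88.3 RPKM in LV-CON. SQLE had 47.9 and 63.1 RPKM in LV-TOX3, against 54.4 and 50.8 RPKM in LV-CON. LSS (chr21:46188141-46228824) had 45.7 and 59.9 RPKM in LV-TOX3, against 56.6 and 51.4 RPKM in LV-CON. In all 3 the LV-CON libraries lay between the LV-TOX3 libraries, with LV-CON replicate 1 above replicate 2. The LV-TOX3 ratio of replicate 2 to replicate 1 was 1.21 for FDFT1, 1.32 for SQLE and 1.31 for LSS.

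Lanosterol is trimmed to cholesterol by demethylation, reduction and isomerization. MSMO1, the methylsterol monooxygenase, was the most abundant enzyme, with 140.3 and 176 RPKM in LV-TOX3, against 161 and 137 RPKM in LV-CON. Its groups overlapped, since LV-CON replicate 2 was its lowest library. TM7SF2, a sterol reductase, had 7.18 and 10.8 RPKM in LV-TOX3, against 8.05 and 8.45 RPKM in LV-CON. At 1.51 (95% counting interval 1.33 to 1.71), its ratio between the LV-TOX3 libraries was the highest of the 18 enzymes, beside 1.05 (0.925 to 1.19) in LV-CON. NSDHL, a sterol dehydrogenase, had 21.8 and 26.1 RPKM in LV-TOX3, against 25.1 and 24.3 RPKM in LV-CON. EBP, a sterol isomerase, had 25.3 and 32.2 RPKM in LV-TOX3, against 32.0 and 30.2 RPKM in LV-CON. In both, LV-TOX3 replicate 1 stood below the other libraries, and LV-TOX3 replicate 2 was nearer to the LV-CON libraries.

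SC5D and DHCR7 act late, as a desaturase and as a reductase that completes cholesterol on a branch of the pathway. SC5D had 12.6 and 17.3 RPKM in LV-TOX3, against 13.5 and 12.4 RPKM in LV-CON, so LV-TOX3 replicate 2 was high and the other 3 libraries lay close together. DHCR7 had 84.3 and 99.7 RPKM in LV-TOX3, against 91.0 and 80.7 RPKM in LV-CON. SC5D had the largest log2 difference of the enzymes between the group means that was positive, 0.19 (SE 0.16; limma adjusted p = 0.870). CYP51A1 (chr7:92084987-92134803), the lanosterol demethylase, had only 1.69 and 2.23 RPKM in LV-TOX3, from 120 and 149 reads, against 1.59 and 2.06 RPKM in LV-CON, from 115 and 150 reads. Replicate 2 was its higher library in both groups. GENCODE v44 places 2 further gene models on the same strand that share 2844 and 2827 exon bases with CYP51A1, so the level of this enzyme is uncertain. GGPS1 and EBP likewise share 1422 and 644 exon bases with a further model on their strand. Over the 10 genes from squalene onward the median difference from the LV-CON mean was -0.16 in LV-TOX3 replicate 1 and 0.23 in replicate 2.

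The SREBP genes and those that control them differed less between the LV-TOX3 libraries than most enzymes. INSIG1, which retains SCAP in the endoplasmic reticulum and is itself an SREBP target, had 127 and 134 RPKM in LV-TOX3, against 150.4 and 118 RPKM in LV-CON. Both LV-TOX3 libraries lay between the LV-CON libraries, which differed by a ratio of 0.786 (95% counting interval 0.763 to 0.810), while LV-TOX3 replicate 2 was above replicate 1 by a ratio of 1.06 (1.03 to 1.09). INSIG2, its less abundant relative, had 5.32 and 5.03 RPKM in LV-TOX3, against 5.28 and 4.08 RPKM in LV-CON. The INSIG1 level per length was 23.8 to 28.9 times that of INSIG2 across the 4 libraries.

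SCAP had 11.3 and 10.9 RPKM in LV-TOX3, against 10.5 and 10.9 RPKM in LV-CON, the narrowest range of the 28 genes. SREBF1, whose protein acts mostly on fatty acid synthesis, had 23.0 and 21.7 RPKM in LV-TOX3, against 22.1 and 20.8 RPKM in LV-CON. SREBF2 (chr22:41833105-41907306), whose protein acts mostly on cholesterol synthesis, had 43.1 and 48.7 RPKM in LV-TOX3, against 45.1 and 44.6 RPKM in LV-CON. Of these 5 genes SREBF2 alone had LV-TOX3 replicate 1 below and replicate 2 above both LV-CON libraries, an order that 10 of the 18 enzymes had, with a ratio of 1.13 between the LV-TOX3 libraries (95% counting interval 1.09 to 1.17) and 0.990 between the LV-CON libraries. SREBF2 was 1.88 to 2.25 times SREBF1 per length, lowest in LV-TOX3 replicate 1 and highest in LV-TOX3 replicate 2. The median difference between the LV-TOX3 libraries over the 5 control genes was -0.05 on the log2(RPKM + 0.1) scale, beside 0.36 over the 18 enzymes.

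The LXR targets ran the other way between the LV-TOX3 libraries. ABCA1 (chr9:104781006-104928155), which exports cholesterol to apolipoproteins, had 13.3 and 8.74 RPKM in LV-TOX3, against 9.10 and 8.34 RPKM in LV-CON. LV-TOX3 replicate 1 stood alone, and LV-TOX3 replicate 2 was between the LV-CON libraries. Its log2 difference between the group means was 0.30 (SE 0.21; limma adjusted p = 0.831), and without LV-TOX3 replicate 1 it was 0.00. MYLIP, a ubiquitin ligase that marks lipoprotein receptors for degradation, had 6.27 and 4.62 RPKM in LV-TOX3, against 5.74 and 5.02 RPKM in LV-CON. The ratio of LV-TOX3 replicate 2 to replicate 1 was 0.658 for ABCA1 (95% counting interval 0.619 to 0.701) and 0.738 for MYLIP (0.621 to 0.875), and in LV-CON it was 0.916 and 0.875. For both genes replicate 2 was thus the lower library in LV-CON as well.

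ABCG1, a partner exporter to high-density lipoprotein, had only 42 and 11 reads in LV-TOX3, against 31 and 43 reads in LV-CON, equal to 0.394 and 0.110 RPKM in LV-TOX3 and 0.285 and 0.393 RPKM in LV-CON. Its ratio between the LV-TOX3 libraries was 0.278 (95% counting interval 0.129 to 0.549), and at 1.38 (0.849 to 2.26) the LV-CON ratio was not distinguishable from 1 at this depth. The receptors themselves are NR1H2 (LXR beta) and NR1H3 (LXR alpha). NR1H2 had 23.7 and 22.6 RPKM in LV-TOX3, against 25.3 and 21.9 RPKM in LV-CON, with both LV-TOX3 libraries inside the LV-CON range. NR1H3 had 0.963 and 1.17 RPKM in LV-TOX3, from 76 and 87 reads, against 1.13 and 1.54 RPKM in LV-CON, from 91 and 125 reads. NR1H2 was 14.2 to 24.6 times NR1H3 per length.

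**Figure D4:**
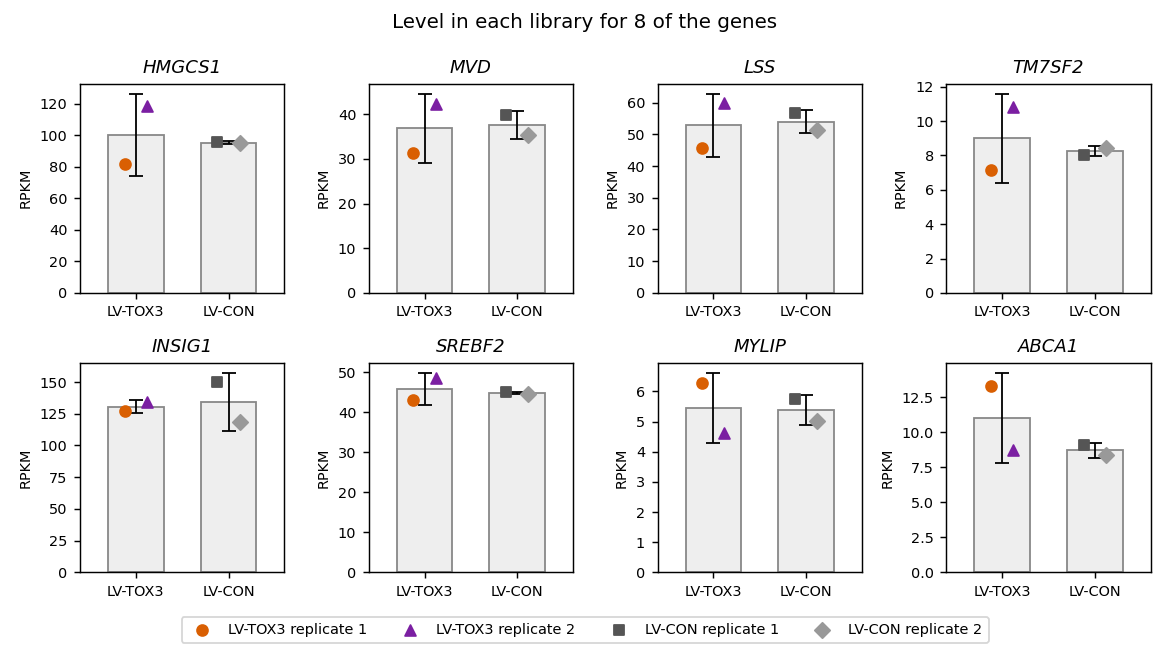
RPKM of 8 of the genes, with the group mean as a bar, the SD of 2 libraries as an error bar, and each library as a point, LV-TOX3 left of LV-CON. In HMGCS1, MVD, LSS and TM7SF2 the LV-TOX3 points lie on opposite sides of both LV-CON points, with replicate 2 the higher, whereas MYLIP shows the reverse order and INSIG1 keeps both LV-TOX3 points inside the LV-CON pair.

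Other genes around the pathway were described by list. Of 15 genes of cholesterol handling and further sterol steps, 9 had a positive and 6 a negative difference between the group means, and 0 passed the adjusted p in limma. STARD4, a cytosolic carrier of cholesterol, was the only one at an unadjusted p under 0.05, with 20.7 and 24.2 RPKM in LV-TOX3, against 19.2 and 16.6 RPKM in LV-CON. Both its LV-TOX3 libraries lay above both LV-CON libraries, as in 4 of these 15 genes and 17.0% of all tested genes. Its log2 difference was 0.32 (limma adjusted p = 0.725). The order of replicate 1 below and replicate 2 above both LV-CON libraries held for 1 of these 15 genes, and the median difference between the LV-TOX3 libraries was -0.05.

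Of 10 genes of fatty acid synthesis linked to SREBP, 9 had a positive and 1 a negative difference, and 0 passed the adjusted p in limma. Over all 14184 tested genes, 6633 differences were positive and 7551 negative. The differences of the 10 genes were small, from -0.02 to 0.19, with a median of 0.05, against -0.01 over all tested genes. ME1, which supplies NADPH, had 62.5 and 67.5 RPKM in LV-TOX3, against 59.9 and 57.0 RPKM in LV-CON (limma adjusted p = 0.762). FASN, the fatty acid synthase, had 84.2 and 99.4 RPKM in LV-TOX3, against 79.3 and 81.1 RPKM in LV-CON (limma adjusted p = 0.768). In both genes both LV-TOX3 libraries lay above both LV-CON libraries, as in 3 of the 10 genes and 17.0% of all tested genes. They were named for the smallest p of the list, which favours such an order. Between the LV-TOX3 libraries the median difference of these 10 genes was 0.07, beside 0.36 for the enzymes of cholesterol synthesis.

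Of 3 further LXR targets, 1 had a positive and 2 a negative difference between the group means, and 0 passed the adjusted p in limma. LPCAT3, which remodels phospholipids, had 2.80 and 2.30 RPKM in LV-TOX3, against 2.86 and 2.69 RPKM in LV-CON. Its groups overlapped, and replicate 2 was its lower library in both groups. The median difference between replicate 2 and replicate 1 over the 3 was -0.27 in LV-TOX3 and -0.42 in LV-CON. Replicate 2 was above replicate 1 for 1 of the 3 in LV-TOX3 (55.1% of all tested genes) and for 0 in LV-CON (51.4% of all).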

How the data were processed

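The authors deposited RPKM values per gene for 4 libraries of KGN cells. Per the methods, SOAPnuke cleaned the reads, HISAT2 mapped them to hg38, expectation maximization gave the gene levels, and ComBat removed batch effects, with the step at which it was applied not given. The sources used here give no versions, nor do they say whether the deposited RPKM values had batch effects removed or whether strand was used in counting. Several of the genes share exon bases with neighbours, such as ACAT2 with TCP1 and FDPS with RUSC1-AS1.

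Groups and replicate numbers came from the labels, and 0 columns of sample values were left out. The 28 genes and all lists were chosen with earlier results of these data known. Named genes are the 28, TOX3, and in each other list the genes at an unadjusted p under 0.05 or the 2 with the smallest p. Some genes taken by this rule are left out of the text. Genes averaging 0.5 RPKM or more were fitted with limma 3.58.1 (R 4.3.3; lmFit, eBayes with trend) on log2(RPKM + 0.1) with 2-sided p-values, no block and Benjamini-Hochberg adjustment over 14184 genes. ABCG1 was fitted without the filter. A fold change on this scale understates that of low genes. The values of 29087 of 29088 genes above 0 were whole multiples of 1 read at a relative tolerance of 1e-12, which gave reads, library totals and exact binomial 95% intervals for ratios. Estimates by expectation maximization are often not whole, so how these arose is unsure, and the reads of HMGCS1 and INSIG2 may be a whole multiple of those given. Promoters came from the RefSeq table of GRCh38.p14, gene positions from GENCODE v44 on hg38. Python 3.11.15 with numpy 2.4.6, pandas 2.3.3 and scipy 1.17.1 was used, and the limma step and the read recovery were tested on simulated data. Alternatives were another pseudocount, filter, scaling and test, the replicate number as a block, and each library left out.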

Additional observations from a re-analysis of the deposited data

How the results depend on the processing

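With 2 libraries in each group, leaving out 1 library left 1 arm with a single sample, which limma assumed to vary like the other group. Leaving out each library in turn moved the count of genes past the adjusted p from 1 to 0 in all 4 cases (0 to 0), left 0 of the 27 genes past it, and gave a median log2 difference of -0.13 (without LV-TOX3 replicate 2) to 0.10 (replicate 1 left out). The sign of 20 of the 27 genes changed without some library: 8 and 11 when LV-TOX3 replicate 1 or 2 was left out, and 5 and 4 when LV-CON replicate 1 or 2 was. The log2 differences over these fits ran, for each of these 20, as follows: ACAT2 -0.13 to 0.26, HMGCS1 -0.22 to 0.32, MVK -0.28 to 0.098, MVD -0.26 to 0.17, IDI1 -0.068 to 0.23, FDFT1 -0.18 to 0.10, SQLE -0.13 to 0.26, LSS -0.24 to 0.15, CYP51A1 -0.093 to 0.29, TM7SF2 -0.20 to 0.39, MSMO1 -0.081 to 0.24, NSDHL -0.18 to 0.078, EBP -0.30 to 0.050, SC5D -0.036 to 0.41, DHCR7 -0.023 to 0.22, INSIG1 -0.20 to 0.14, INSIG2 -0.027 to 0.33, SREBF2 -0.058 to 0.12, MYLIP -0.21 to 0.22, NR1H2 -0.13 to 0.080. The 7 others kept their sign but also moved: PMVK -0.29 to -0.090, FDPS -0.28 to -0.046, GGPS1 -0.21 to -0.014, NR1H3 -0.50 to -0.083, SCAP 0.023 to 0.075, SREBF1 0.016 to 0.099 and ABCA1 0.0047 to 0.60. Under the other pseudocount, filters, scalings and tests 0 of the 27 changed sign. Without a filter 0 genes in all passed the adjusted p.

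The replicate numbers are shared by both groups, but the labels do not say what a number marks, and over 14184 genes the difference between replicates 2 and 1 in LV-TOX3 and in LV-CON correlated at 0.19. With the replicate block limma called 1 gene in all and 0 of the 27. In limma-voom on the recovered reads, the fit without the block called 1 gene, and the fit with the replicate block called 596, with 1 of the 27 past the adjusted p: ABCA1, at a log2 difference of 0.31 and an adjusted p of 0.0024. The cause was not tested.

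The order with LV-TOX3 replicate 1 below and replicate 2 above both LV-CON libraries held for 10 genes under median ratio scaling (7.26% of all tested genes) and for 10 under quantile normalization (6.68%). It held for 6 with the libraries set apart by at least 5% (3.05% of all tested genes), which asks for more by construction. The median difference between the LV-TOX3 libraries over the 27 genes was 0.26, and 0.24 and 0.27 under these scalings, both added after seeing the data for this result. Depth limits ABCG1, NR1H3 and CYP51A1 most.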
